A study of Mus musculus with 30 samples.

Results

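The genes described here are those of the proteasome, taken as every protein-coding row of the raw count table whose symbol begins with Psm followed by a letter from a to g and a number. The rule found 50 genes among 55487 rows. By function, 14 encode the constitutive core (7 alpha and 7 beta subunits), 9 the base of the regulatory particle (6 ATPases and 3 other subunits), 8 the lid, 7 assembly chaperones, 5 activators, 1 a core inhibitor, 3 the inducible catalytic subunits of the immunoproteasome and 2 tissue-specific core subunits. The remaining gene, Psmc3ip, matched by symbol only and encodes a recombination protein. RNA was sequenced from wild-type C2C12 myotubes, which form by fusion of a mouse myoblast line, in 5 groups of 6 replicates. All cells were differentiated for 4 days in low-glucose medium with 2% horse serum and then kept for 4 days in the same medium (2% HS), in medium without serum (SD), or in medium without serum with 100 nM metformin (MET), with 500 nM leucine (LEU) or with both (MET+LEU). The labels number the replicates but do not say whether they were separate cultures, so the p-values measure the spread between these libraries, which may be partly technical.

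The proteasome is the main protease for ubiquitin-tagged proteins in the cytosol and nucleus. Its core is a barrel in which rings of alpha subunits guard the entry and rings of beta subunits carry the proteolytic sites, and a regulatory particle on the end of the barrel recognizes ubiquitin (lid and base) and unfolds the substrate with a ring of ATPases (base). In skeletal muscle the pathway is known for the breakdown of myofibrillar proteins during atrophy, and serum deprivation of myotubes is a model of atrophy, so the comparisons ask whether the transcripts of the machine itself change when serum is withdrawn and when metformin and leucine are added.

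Libraries held 12784960 to 19604103 counts, and the 50 genes took 0.362% to 0.446% of them. All 7 myotube markers were detected, with a summed level of 8007 to 9658 CPM (counts scaled to library size with TMM factors) over the 30 libraries, while 7 leukocyte markers summed to 1.66 to 4.05 CPM, 3 endothelial markers to at most 0.77 CPM and 2 adipocyte markers to at most 0.23 CPM. The 4 fibroblast markers summed to 542 to 637 CPM in 2% HS, 738 to 903 CPM in SD and 623 to 706 CPM in MET+LEU, and the 5 proliferating myoblast markers to 344 to 368 CPM in 2% HS, 302 to 340 CPM in SD and 266 to 289 CPM in MET+LEU. Both sums thus differed without overlap between SD and either of the other groups, but the genes of a list did not all move together. At an adjusted p under 0.05, SD vs. 2% HS gave 3 of 3 tested fibroblast markers higher and 1 of 5 myoblast markers lower (median log2 fold change 0.003). MET+LEU vs. SD gave 1 fibroblast marker higher and 1 lower (median 0.09), and 3 myoblast markers lower. The myotube sum overlapped between these groups, but its genes also moved. Of the 7 myotube markers, 1 was higher and 1 lower in SD vs. 2% HS (log2 fold changes -0.98 to 0.13). In MET+LEU vs. SD, 2 were higher and 0 lower (-0.14 to 0.82). Of all genes tested, 13.9% were higher and 13.9% lower in the first, and 10.6% and 7.8% in the second. The part of these shifts in the proteasome values was not tested, and in bulk RNA fewer cells of a type and less RNA per cell cannot be told apart. In the MET+LEU library of replicate 6, nuclear rRNA took 5.85% and mitochondrial rRNA 7.64% of counts, against at most 1.96% and 0.760% in the other 29 libraries. The SD group also held libraries at different levels. For the mean of the 31 constitutive subunits, SD replicates 1 and 3 lay 0.20 to 0.22 above the 2% HS mean on the log2 scale and the other 4 SD libraries between 0.00 and 0.07 above it, so counts that rest on SD are also given without both libraries, a choice made after seeing the data.

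Of the 50 genes, 46 had enough counts to be tested. Levels between genes were compared per length, as CPM per kb of exonic sequence. Over all libraries, the constitutive subunits lay between 25.3 and 138 CPM per kb. The alpha subunits ranged from 25.3 (Psma2) to 71.2 (Psma6) CPM per kb, with a median of 43.4, and the beta subunits from 31.6 (Psmb1) to 138 (Psmb6), with a median of 86.4. The base ATPases had a median of 69.2 CPM per kb and were led by Psmc3 at 136, and the lid had a median of 53.0. The assembly chaperones, which act on the particle only while it is built, were lower, with medians of 11.6 for the 4 core chaperones (Psmg1 to Psmg4) and 10.9 for the 3 base chaperones (Psmd5, Psmd9 and Psmd10). Psmf1, which encodes an inhibitor of the core, was at 7.03 CPM per kb. Among activators, Psme3 (43.1) and Psme4 (46.9), which encode the nuclear activators PA28-gamma and PA200, were at the level of core subunits, and Psme1 (14.9) and Psme2 (17.3), the interferon-inducible pair, were lower. Psme2b, a near copy of Psme2 with which it could share reads, was at 0.73 and its values are uncertain.

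**Figure D1:**
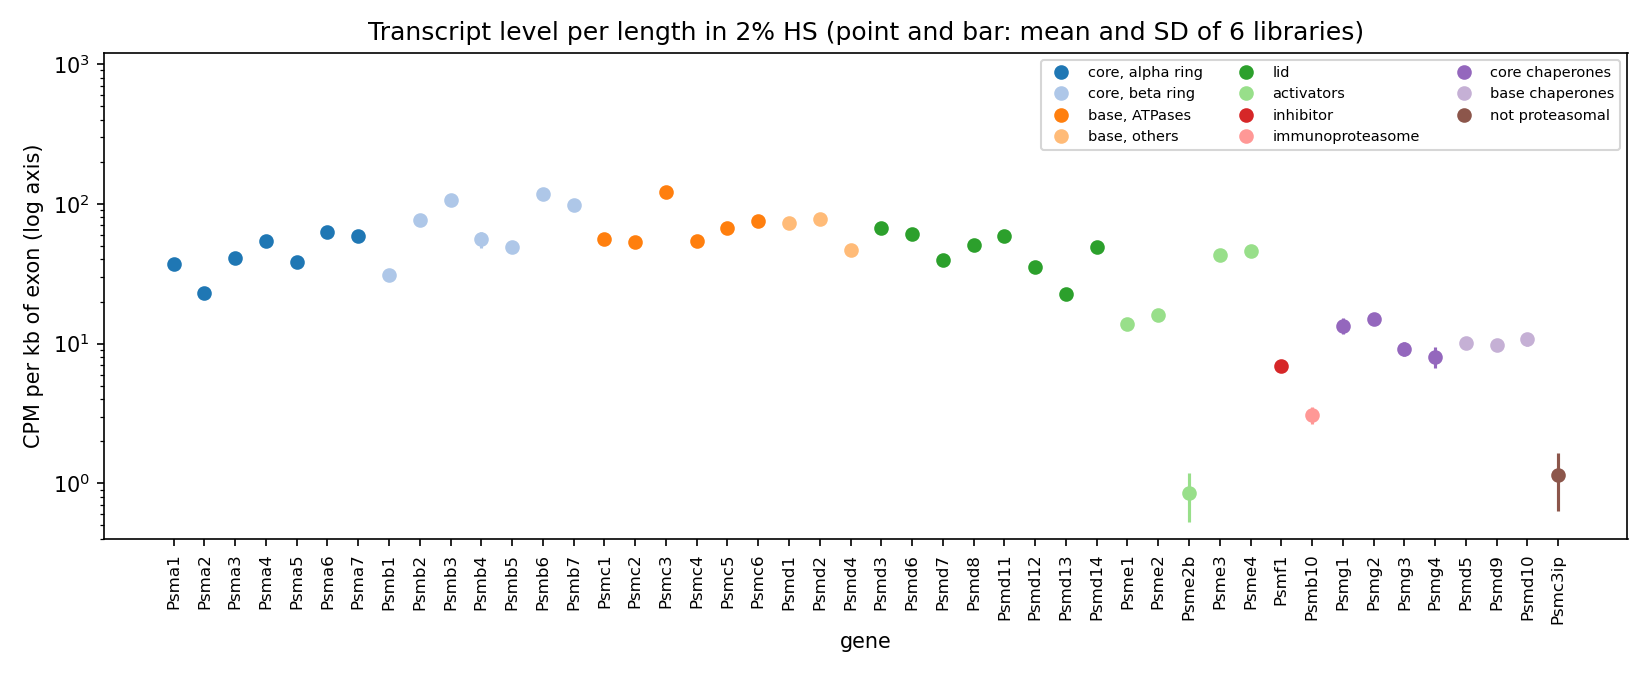
Transcript level in 2% HS for the 46 tested genes, as CPM per kb of exonic sequence on a log axis, with the mean and SD of 6 libraries and colour for the part of the proteasome. Core, base and lid genes lie together near the top, and chaperones, Psmf1 and Psmb10 lie below them.

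The myotubes expressed the constitutive and almost none of the inducible catalytic subunits. The proteolytic beta subunits are Psmb5 (chymotrypsin-like site), Psmb6 (caspase-like site) and Psmb7 (trypsin-like site), and in the immunoproteasome their places are taken by Psmb8, Psmb9 and Psmb10. Psmb8 (chr17:34197721-34201454) had 38 counts in all 30 libraries together and at most 7 in one, and Psmb9 (chr17:34181987-34187764) had 20 and at most 3. In no group did Psmb8 reach more than 0.131% of the level of Psmb5 per kb, or Psmb9 more than 0.0374% of that of Psmb6. Psmb10 (chr8:105935735-105938444) was detected in all 30 libraries and its level was 2.07% to 3.14% of that of Psmb7 per kb. Its CPM had a lowest, median and highest value of 3.25, 4.02 and 4.77 in 2% HS, 2.39, 3.79 and 4.32 in SD, and 2.94, 3.61 and 4.76 in MET+LEU. The groups overlapped throughout, and Psmb10 passed the test in no comparison. Its log2 fold change in MET+LEU vs. SD had an approximate 95% interval of -0.27 to 0.30. Psma8, the alpha subunit of the testis, had 1 count in all, and Psmb11, the beta subunit of the thymic cortex, had 12. A count of 0 allowed up to 0.153 to 0.235 CPM, depending on the library, for counting error only, so changes of Psmb8, Psmb9, Psma8 and Psmb11 were not detectable at this depth. Coordinates here are those of GENCODE M21 on GRCm38, the build named in the labels.

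Promoter windows from RefSeq (GRCm38.p6), which run from 250 bases before to 50 after a start site, matched 42 of the 50 genes. Windows of 27025 genes gave the background, which was not limited to the 15907 genes tested here, so it includes genes with few or no counts. The letters CCGGAAG, read on both strands and known as an ETS-type motif, were in the windows of 15 of the 42 genes (35.7%) and of 10 of the 25 matched constitutive subunits (40%), against 9.93% of all genes. GGGCGG, an Sp1-type motif, was in 54.8% of the 42 and 38.2% of all genes. TGACNNNGC, the core of the antioxidant response element that is read by Nrf1 and Nrf2, was in 6 of the 42 (14.3%) and 14% of all genes, CCAAT in 35.7% and 41.1%, and the interferon response element motif in 11.9% and 3.99%. Of the 21 CCGGAAG matches in these genes, 1 overlapped a match of another of these motifs. A match is a description of letters, not of a bound site, and genes with more than 1 start site had more than 1 window. Among the 25 constitutive subunits, CCGGAAG stood in the window of 10, of which 6 were higher in MET+LEU vs. SD (median log2 fold change 0.16), and was not found in that of 15, of which 7 were higher (median 0.12). The 150 bases before a start site are shown for 4 subunits that were higher in MET+LEU and hold CCGGAAG, and for the catalytic subunits Psmb6 and Psmb5, which hold TGACNNNGC. Psmc6 and Psmd12 also hold TGACNNNGC in their windows, at -227 and -247 from the start site, outside the stretches shown. Psma6 has more than 1 window, and the one shown was picked for its motif match. Its window at chr12:55383972-55384271 holds no CCGGAAG. Capitals mark CCGGAAG or TGACNNNGC on either strand, and each sequence is given 5′ to 3′ on the strand of its gene.
Psma6 (chr12:55398675-55398824, plus strand): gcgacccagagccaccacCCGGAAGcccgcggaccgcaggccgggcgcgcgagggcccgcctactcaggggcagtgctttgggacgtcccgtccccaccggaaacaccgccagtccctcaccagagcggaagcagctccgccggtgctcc
Psmc1 (chr12:100110052-100110201, plus strand): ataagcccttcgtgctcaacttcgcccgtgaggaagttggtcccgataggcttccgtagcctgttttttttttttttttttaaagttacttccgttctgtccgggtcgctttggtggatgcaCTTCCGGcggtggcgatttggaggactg
Psmc6 (chr14:45329674-45329823, plus strand): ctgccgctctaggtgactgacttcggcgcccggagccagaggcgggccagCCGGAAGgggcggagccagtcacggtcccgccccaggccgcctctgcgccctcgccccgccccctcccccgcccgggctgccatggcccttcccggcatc
Psmd12 (chr11:107479378-107479527, plus strand): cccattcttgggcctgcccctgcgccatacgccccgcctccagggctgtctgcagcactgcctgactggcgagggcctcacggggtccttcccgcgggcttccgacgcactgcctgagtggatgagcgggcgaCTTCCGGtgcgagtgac
Psmb6 (chr11:70525207-70525356, plus strand): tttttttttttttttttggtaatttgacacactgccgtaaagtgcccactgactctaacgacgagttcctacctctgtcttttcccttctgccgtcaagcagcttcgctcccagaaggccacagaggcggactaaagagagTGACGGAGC
Psmb5 (chr14:54617996-54618145, minus strand): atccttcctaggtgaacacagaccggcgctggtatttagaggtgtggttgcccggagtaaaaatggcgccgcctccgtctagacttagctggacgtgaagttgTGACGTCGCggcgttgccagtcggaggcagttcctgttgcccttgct

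Small increases in subunits of the core and lid were measured after serum deprivation, and most of them rested on SD replicates 1 and 3. In SD vs. 2% HS, 13 of the 46 genes were higher and 0 lower at an adjusted p under 0.05 (edgeR quasi-likelihood test, Benjamini-Hochberg adjustment over 15907 genes), where 13.9% of all genes tested were higher and 13.9% lower. The median log2 fold change of the 46 was 0.08, against 0.00 over all genes. The genes that rose were 4 of 7 alpha subunits (Psma2, Psma4, Psma6 and Psma7), 3 of 7 beta subunits (Psmb2, Psmb6 and Psmb7), 1 of 9 base subunits (Psmc2, an ATPase), 4 of 8 lid subunits (Psmd3, Psmd6, Psmd13 and the deubiquitinase Psmd14) and the base chaperone Psmd5. Their log2 fold changes were between 0.11 (Psmd3) and 0.28 (Psmb6). None of the activators passed the test. Without both SD replicates 1 and 3, the count fell to 2, Psmb6 and Psmd5, where 10.8% of all genes tested were higher in the same fit. It was 7 without SD replicate 3 alone, 8 without SD replicate 1 alone and 8 without 2% HS replicate 6.

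Psmb6 (chr11:70525367-70527858) showed the largest of these increases. Its lowest, median and highest CPM were 87.7, 90.6 and 106.8 in 2% HS and 99.7, 114 and 130 in SD. Most SD libraries lay above the range of 2% HS, with the lowest 2 SD libraries inside it, and the log2 fold change was 0.28 ± 0.060 (SE, n = 6 per group; edgeR adjusted p = 0.000354), an increase of 21.8%. Psma7 (chr2:180036374-180042433), an alpha subunit, was at 63.4, 69.2 and 73.6 CPM in 2% HS and 67.4, 77.7 and 90.5 CPM in SD (0.19 ± 0.051; edgeR adjusted p = 0.00282). Its groups overlapped as well, with SD replicates 1 and 3 the highest of SD. The lid subunit Psmd13 (chr7:140881968-140898643) went from 51.9, 55.9 and 58.4 CPM to 57.0, 63.0 and 68.5 CPM (0.18 ± 0.048; edgeR adjusted p = 0.00292), with 1 SD library inside the range of 2% HS. Psmb7 (chr2:38588036-38644087) was at 104.6, 114 and 122 CPM in 2% HS and 105, 130 and 144 CPM in SD (0.15 ± 0.050; edgeR adjusted p = 0.0214). Psmc2 (chr5:21785283-21803787) was at 90.2, 93.4 and 103 CPM in 2% HS and 96.6, 100.9 and 120.3 CPM in SD (0.15 ± 0.044; edgeR adjusted p = 0.00875). In both genes SD replicates 1 and 3 were among the 3 highest SD libraries, and the call of Psmc2 was lost without SD replicate 3 and that of Psmb7 without any 1 of SD replicates 1, 3 and 6 or 2% HS replicate 6. Psmb5 (chr14:54614119-54618022), the chymotrypsin-like subunit, had a wider range in SD than in 2% HS, at 36.7, 48.7 and 61.1 CPM against 40.0, 44.7 and 48.3 CPM, and its log2 fold change of 0.16 had an interval of -0.03 to 0.35. Psma6 was the only one of the 46 genes whose SD libraries all lay above those of 2% HS, where 6.17% of all genes tested did so. Exons of Psmd13 and Psmb7 overlap genes on the other strand (Sirt3 and Nek6), and since the strand setting of the counting is not given in the sources used here, reads of the partners cannot be told apart.

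Few differences from SD passed the test with metformin or leucine alone. In MET vs. SD, 0 of the 46 genes passed the test with edgeR (0.157% of all genes did), 6 had an unadjusted p under 0.05, and DESeq2 and limma-voom also called 0. The median log2 fold change was 0.03. In LEU vs. SD, 1 gene was higher, where 0.233% of all genes were and 0.321% were lower, and 8 had an unadjusted p under 0.05. This gene was Psmc3 (chr2:91054009-91066369), an ATPase of the base, at 243, 249.3 and 286 CPM in SD and 276, 288 and 296 CPM in LEU (0.16 ± 0.038; edgeR adjusted p = 0.0302). The groups overlapped, and the call was lost without any 1 of LEU replicates 2, 3 and 6 or SD replicates 2, 4, 5 and 6. Without both SD replicates 1 and 3, 3 genes were higher in either comparison, Psma7 (0.21 in MET and 0.20 in LEU), Psmc3 (0.17 and 0.23) and Psmc5 (0.20 and 0.19), where 0.315% and 0.586% of all genes were higher. Both comparisons share the SD libraries, and the libraries of MET and LEU lay closer together than those of SD. The mean of the 31 constitutive subunits lay 0.12 to 0.18 above 2% HS in MET, 0.13 to 0.16 in LEU and 0.00 to 0.22 in SD on the log2 scale.

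The catalytic subunits in single-agent libraries all lay within the range of SD. Psmb5 was at 45.3, 46.2 and 53.7 CPM in MET and 49.7, 51.2 and 52.9 CPM in LEU. Psmb6 was at 112, 118 and 124 CPM in MET and 101.4, 112 and 123 CPM in LEU. Psmb7 was at 133, 136 and 144 CPM in MET and 128, 138 and 140 CPM in LEU. The inducible Psmb10 overlapped with SD as well, with 2.69, 3.21 and 3.78 CPM in MET and 3.12, 3.90 and 4.76 CPM in LEU. For the ATPases Psmc1, Psmc2 and Psmc3, medians were higher than in SD with either agent while the libraries overlapped. Psmc3 was at 265, 275 and 288 CPM in MET. Psmc1 was at 101.6, 104 and 112 CPM in MET and 101.2, 104 and 111 CPM in LEU. Psmc2 was at 106, 108 and 112 CPM in MET and 100.0, 105 and 110.2 CPM in LEU. The same order of medians held for the lid subunit Psmd7 and the alpha subunit Psma7, and Psmd13 differed little in median. Psmd7 was at 67.8, 74.4 and 79.1 CPM in MET and 75.7, 78.2 and 82.9 CPM in LEU. Psma7 was at 80.8, 85.0 and 90.6 CPM in MET and 80.2, 85.0 and 91.2 CPM in LEU. Psmd13 was at 59.8, 62.3 and 67.0 CPM in MET and 60.1, 64.7 and 69.2 CPM in LEU. The activators and the inhibitor overlapped with SD under both agents. Psme1 was at 16.4, 17.6 and 19.3 CPM in MET and 15.5, 18.4 and 20.9 CPM in LEU. Psme2 was at 16.2, 17.4 and 19.05 CPM in MET and 15.9, 16.6 and 17.5 CPM in LEU. For this pair the single agents reached at most 20.9 and 19.05 CPM, within the range seen with the combination. Psme3 was at 118, 120.0 and 129 CPM in MET and 113, 117 and 124 CPM in LEU. Psme4 was at 312, 332 and 349 CPM in MET and 319, 326 and 335 CPM in LEU. Psmf1 was at 26.4, 28.8 and 30.3 CPM in MET and 26.002, 27.3 and 30.3 CPM in LEU.

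**Figure D2:**
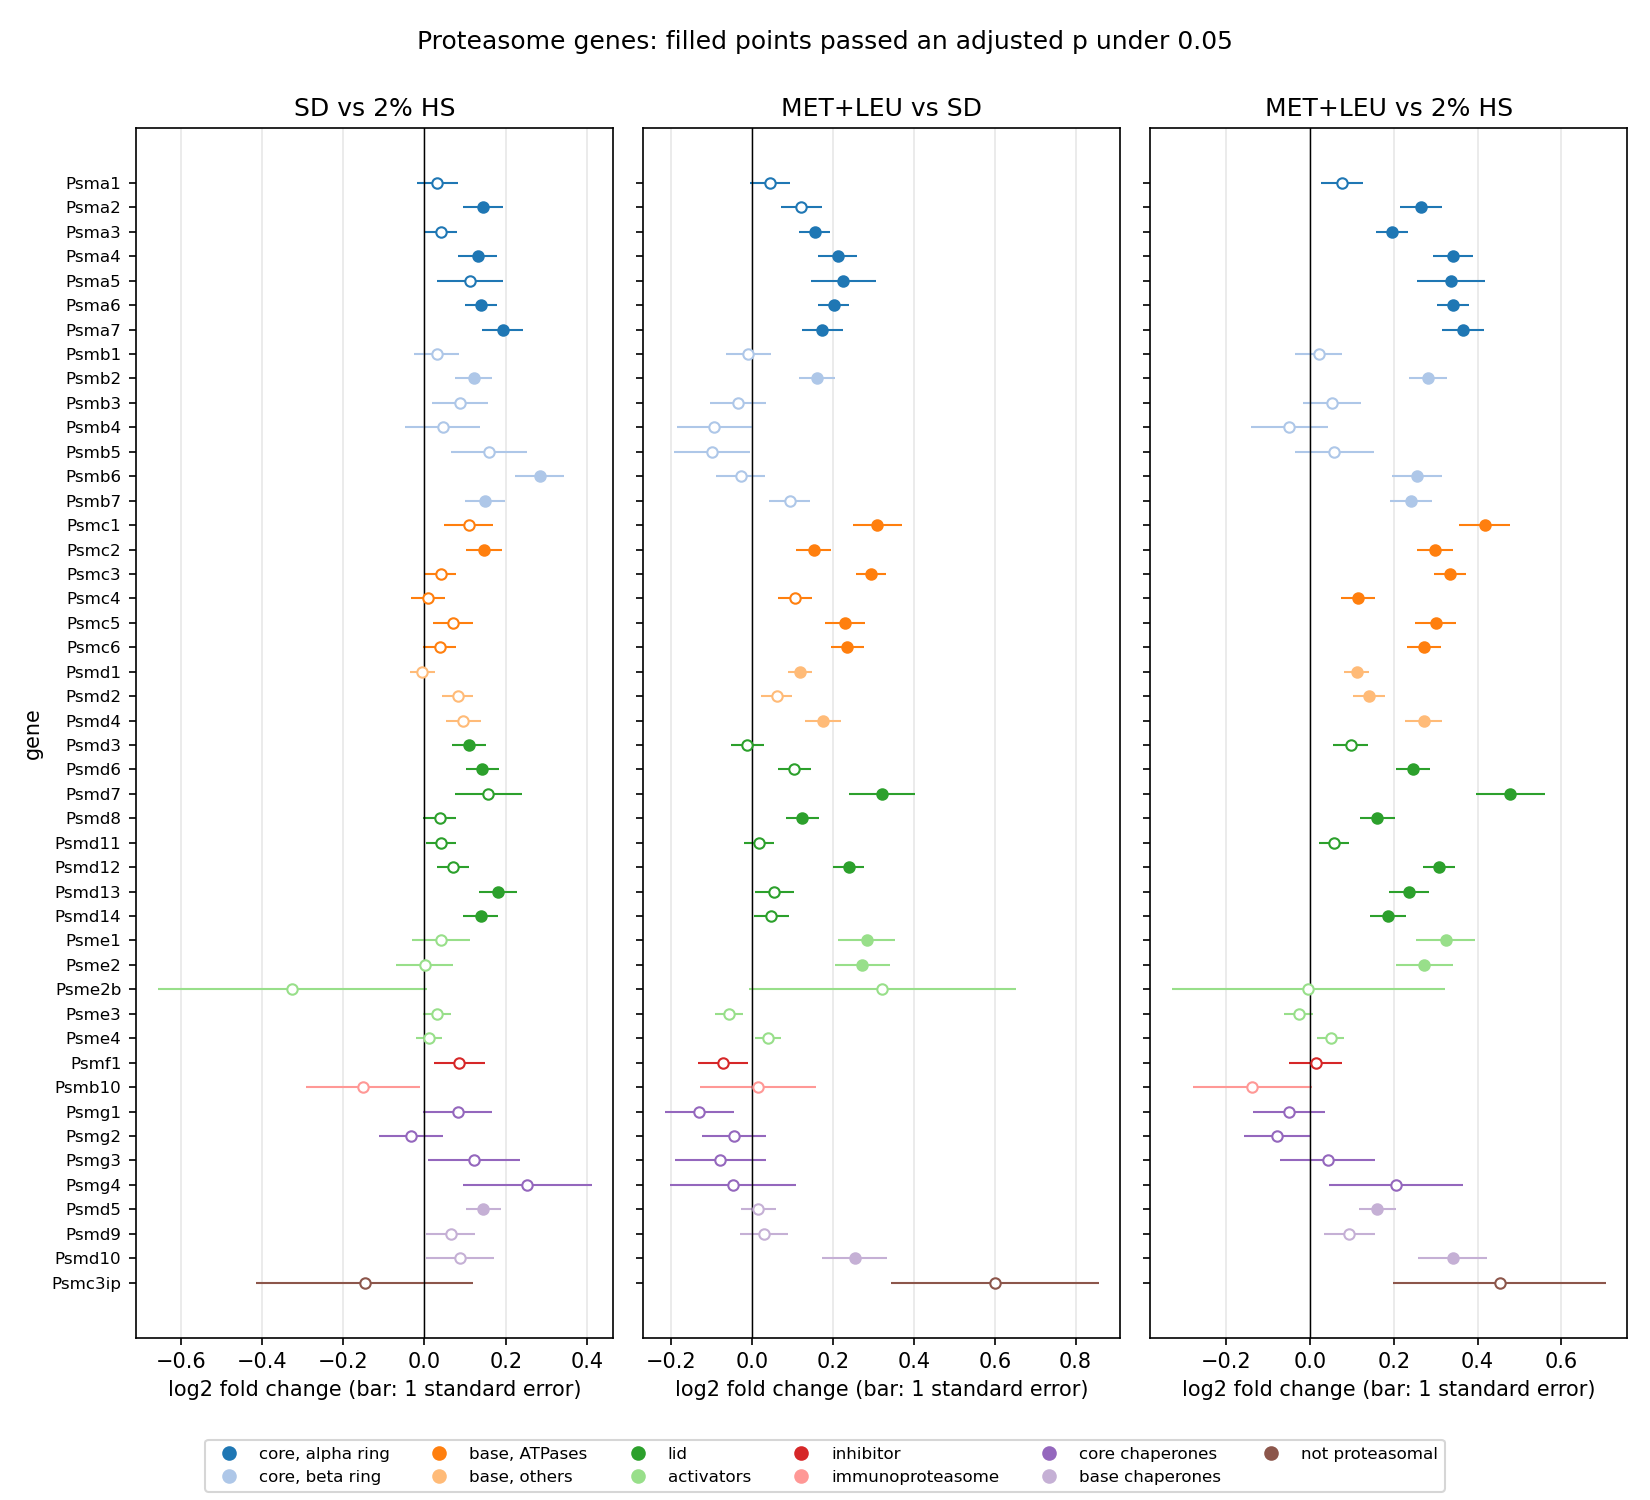
Log2 fold change with its standard error for the 46 tested genes in SD vs. 2% HS, MET+LEU vs. SD and MET+LEU vs. 2% HS, ordered and coloured by part of the proteasome. Filled points had an adjusted p under 0.05: 13, 19 and 28 genes, all to the right of 0, while most beta subunits and the core chaperones lie near 0 in MET+LEU vs. SD.

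With the combination, base ATPases, alpha subunits and the activator pair Psme1 and Psme2 were higher than in SD, and 1 of 7 beta subunits passed the test. In MET+LEU vs. SD, 19 of the 46 genes were higher and 0 lower, where 10.6% of all genes tested were higher and 7.8% lower. The median log2 fold change of the 46 was 0.10, against -0.01 over all genes. The comparison shares the SD libraries with those above. Without MET+LEU replicate 6 the count was 15, without MET+LEU replicate 2 it was 14, and without both SD replicates 1 and 3 it was 24. By part, 5 of 6 base ATPases rose (median 0.23), 5 of 7 alpha subunits (median 0.17), 2 of 3 other base subunits (median 0.12), 3 of 8 lid subunits (median 0.08) and 1 of 7 beta subunits (median -0.03). The alternatives and left-out libraries gave 4 to 6 of the ATPases (medians 0.18 to 0.27), 3 to 6 of the alpha (0.13 to 0.24) and 0 to 2 of the beta subunits (-0.07 to 0.05). Of the 19 genes, 12 were called under every alternative, namely Psma4, Psma6, Psmc1, Psmc3, Psmc5, Psmc6, Psmd1, Psmd4, Psmd7, Psmd12, Psme1 and Psme2. Libraries of the groups did not overlap for 3 genes (Psmc3, Psmc6 and Psmd12), where 3.41% of all genes lay wholly higher.

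The ATPases form the ring that pulls substrates into the core. Psmc3 was at 243, 249.3 and 286 CPM in SD and 293, 313 and 342 CPM in MET+LEU, with every MET+LEU library above every SD library (0.29 ± 0.038; edgeR adjusted p = 4.35e-07), an increase of 22.6%. Exons of Psmc3 overlap Slc39a13 on the other strand. Psmc6 (chr14:45329788-45349705), whose promoter is shown above, was at 158, 173 and 188 CPM in SD and 191, 197 and 232 CPM in MET+LEU, again without overlap (0.23 ± 0.041; edgeR adjusted p = 5.23e-05). Psmc1 (chr12:100110154-100123405), also shown above, went from 87.3, 95.5 and 108.5 CPM to 108.4, 113 and 153 CPM (0.31 ± 0.061; edgeR adjusted p = 0.000396). The highest value came from MET+LEU replicate 6, the library rich in rRNA, and without it the log2 fold change was 0.22 and the adjusted p 0.000204. Psmc5 (0.23) and Psmc2 (0.15) rose as well, the call of Psmc2 being lost without MET+LEU replicate 2 (adjusted p = 0.0537), and Psmc4 (0.11, interval 0.02 to 0.19) did not pass the adjusted threshold. Of the other base subunits, the large scaffold Psmd1 (0.12) and the ubiquitin receptor Psmd4 (0.18) rose and the scaffold Psmd2 was at 0.06.

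In the alpha ring, which gates the core, Psma5 (0.23), Psma4 (0.21), Psma6 (0.20), Psma7 (0.17) and Psma3 (0.15) rose. Psma6 (chr12:55384222-55418454) was at 75.4, 78.3 and 86.4 CPM in SD and 85.5, 92.5 and 97.8 CPM in MET+LEU (0.20 ± 0.039; edgeR adjusted p = 0.000187). The highest SD and the lowest MET+LEU library overlapped. Psma3 lost its call with the GC offset. Psma7 was called with MET+LEU replicate 2 (98.5 CPM, the others 85.3 to 88.9) and not without it or without SD replicate 5, and Psma5 lost its call without most of the single libraries (edgeR adjusted p = 0.0488 with all). In the beta ring, Psmb2 rose (0.16), but its adjusted p without MET+LEU replicate 6 was 0.0503. The catalytic subunits did not pass the test. Psmb5 was at 37.7, 45.4 and 56.0 CPM in MET+LEU (log2 fold change -0.10, interval -0.29 to 0.09), Psmb6 at 103, 112 and 123 CPM (-0.03, interval -0.15 to 0.09) and Psmb7 at 121, 137 and 144 CPM (0.09, interval -0.01 to 0.19). In all 3 every MET+LEU library lay within the range of SD. Psmb1, Psmb3 and Psmb4, which have no proteolytic site, had log2 fold changes of -0.01, -0.04 and -0.09.

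**Figure D3:**
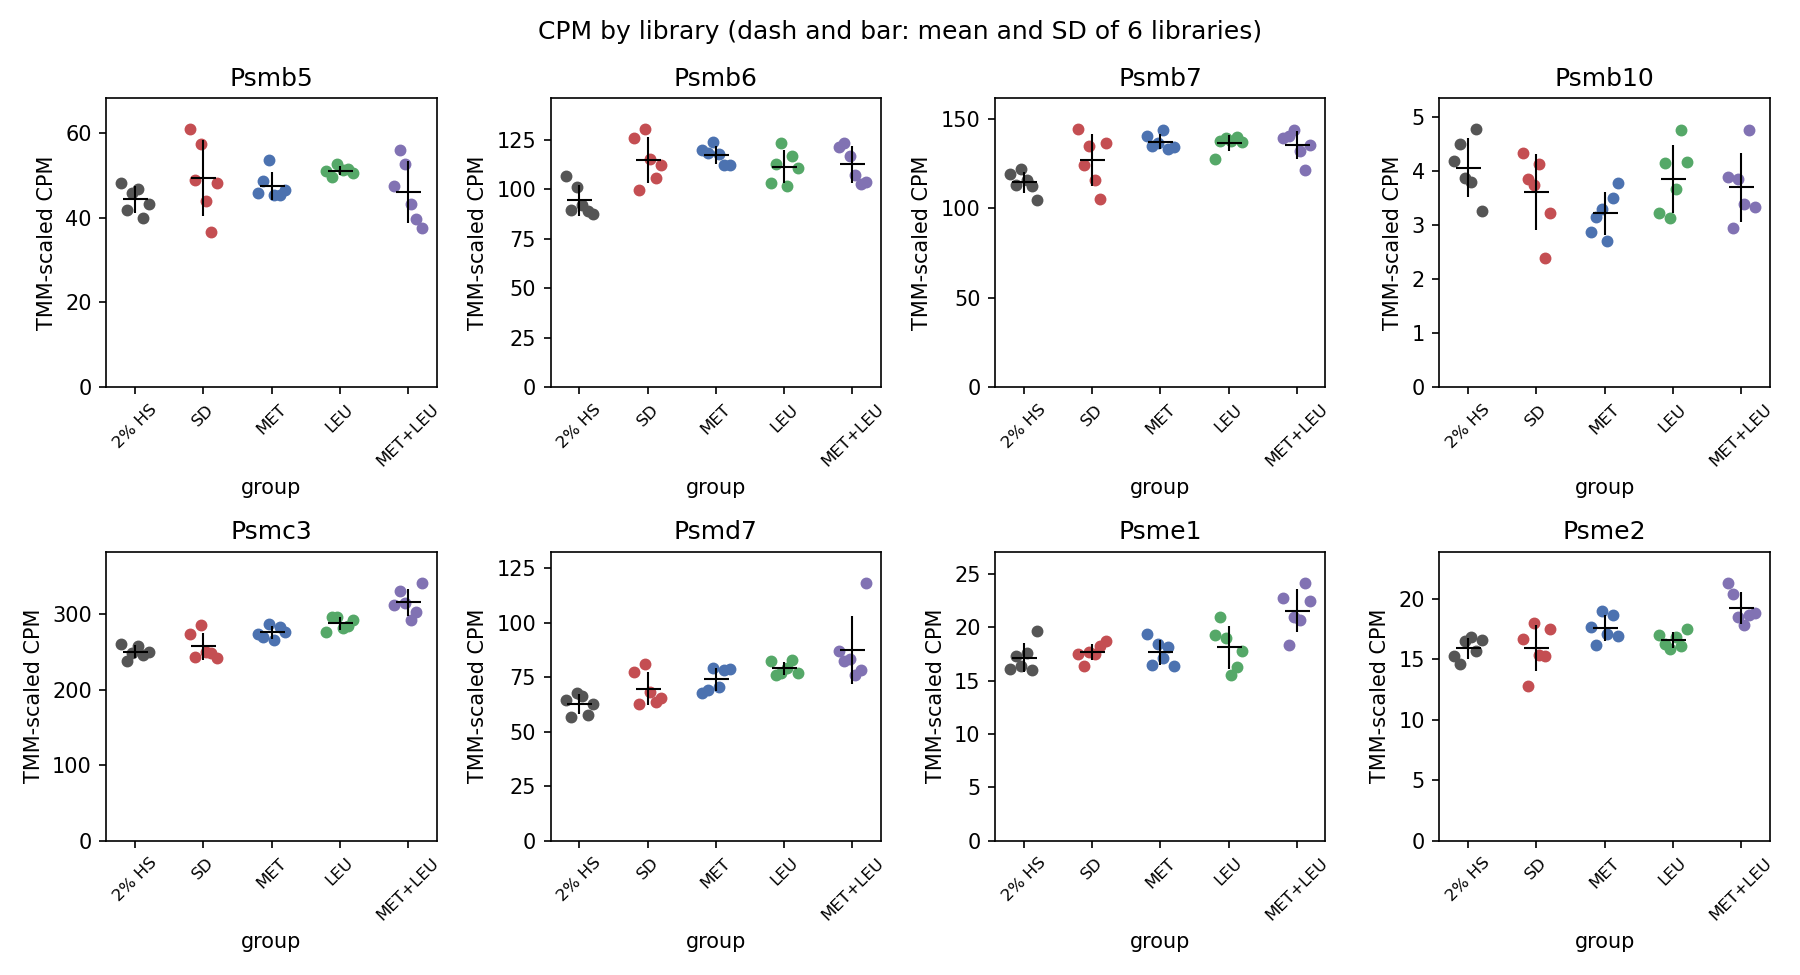
CPM in each of the 30 libraries for the catalytic subunits Psmb5, Psmb6 and Psmb7, the inducible subunit Psmb10, the base ATPase Psmc3, the lid subunit Psmd7 and the activators Psme1 and Psme2, with the mean and SD of 6 libraries per group and axes from 0. Psmc3 was higher in all MET+LEU libraries (293 to 342 CPM) than in any SD library, whereas Psmb5, Psmb6 and Psmb7 overlapped between these groups.

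Of the lid, Psmd7, Psmd12 and Psmd8 rose. Psmd12 (chr11:107479484-107504362), a scaffold subunit, was at 91.5, 96.7 and 107 CPM in SD and 107, 116 and 123 CPM in MET+LEU (0.24 ± 0.038; edgeR adjusted p = 1.73e-05), with no library of MET+LEU inside the range of SD. Psmd7 (chr8:107580381-107588464), the partner of the deubiquitinase Psmd14, was at 62.6, 66.9 and 81.1 CPM in SD and 76.0, 82.9 and 118 CPM in MET+LEU (0.32 ± 0.081; edgeR adjusted p = 0.00594). The value of 118 CPM was again that of MET+LEU replicate 6, and without it the log2 fold change was 0.21 and the adjusted p 0.00656. The call of Psmd8 (0.12) was lost without any 1 of 8 libraries. Psmd14 (0.05) and Psmd13 (0.05) did not pass the test in MET+LEU vs. SD.

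Psme1 (chr14:55578123-55581529) and Psme2 (chr14:55587441-55591113) encode the ring that opens the core to peptides without ubiquitin. Psme1 was at 16.4, 17.6 and 18.7 CPM in SD and 18.3, 21.7 and 24.2 CPM in MET+LEU (0.28 ± 0.071; edgeR adjusted p = 0.00335), and 1 MET+LEU library lay within the SD range. Psme2 was at 12.8, 16.02 and 18.04 CPM in SD and 17.8, 18.8 and 21.4 CPM in MET+LEU (0.27 ± 0.068; edgeR adjusted p = 0.00357), with 1 library of each group in the range of the other. In SD vs. 2% HS the log2 fold changes of the pair were 0.04 and 0.00, and neither passed the test. Exons of Psme1 overlap Emc9 on the other strand, and Psme2 can share reads with Psme2b (0.32 ± 0.331 in MET+LEU vs. SD). The other activators did not pass the test. Psme3 was at 117, 121 and 133 CPM in SD and 116, 117 and 121 CPM in MET+LEU (-0.06, interval -0.13 to 0.01). Psme4 was at 300.1, 332 and 341 CPM in SD and 323, 337 and 347 CPM in MET+LEU (0.04, interval -0.02 to 0.10). Psmf1, the inhibitor, was at 26.01, 28.7 and 33.0 CPM in SD and 23.4, 28.2 and 29.8 CPM in MET+LEU (-0.07, interval -0.20 to 0.05). The genes that build the particle did not move as one. Psmd10, a base chaperone, rose (0.25; edgeR adjusted p = 0.0237), a call lost without MET+LEU replicate 2 or 6 or SD replicate 3 or 6, and the 4 core chaperones Psmg1 to Psmg4 had log2 fold changes of -0.13 to -0.05 with adjusted p of 0.313 to 0.873. Genes of the interferon response and of antigen processing, which share regulators with Psme1, Psme2 and the inducible subunits, gave 0 higher and 1 lower (Tapbp) of 9 tested in MET+LEU vs. SD, and 5 higher (Tap1, Tap2, Tapbp, H2-K1 and H2-D1) and 0 lower in SD vs. 2% HS. The shares of all genes were 10.6% higher and 7.8% lower in the first and 13.9% in each direction in the second.

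**Figure D4:**
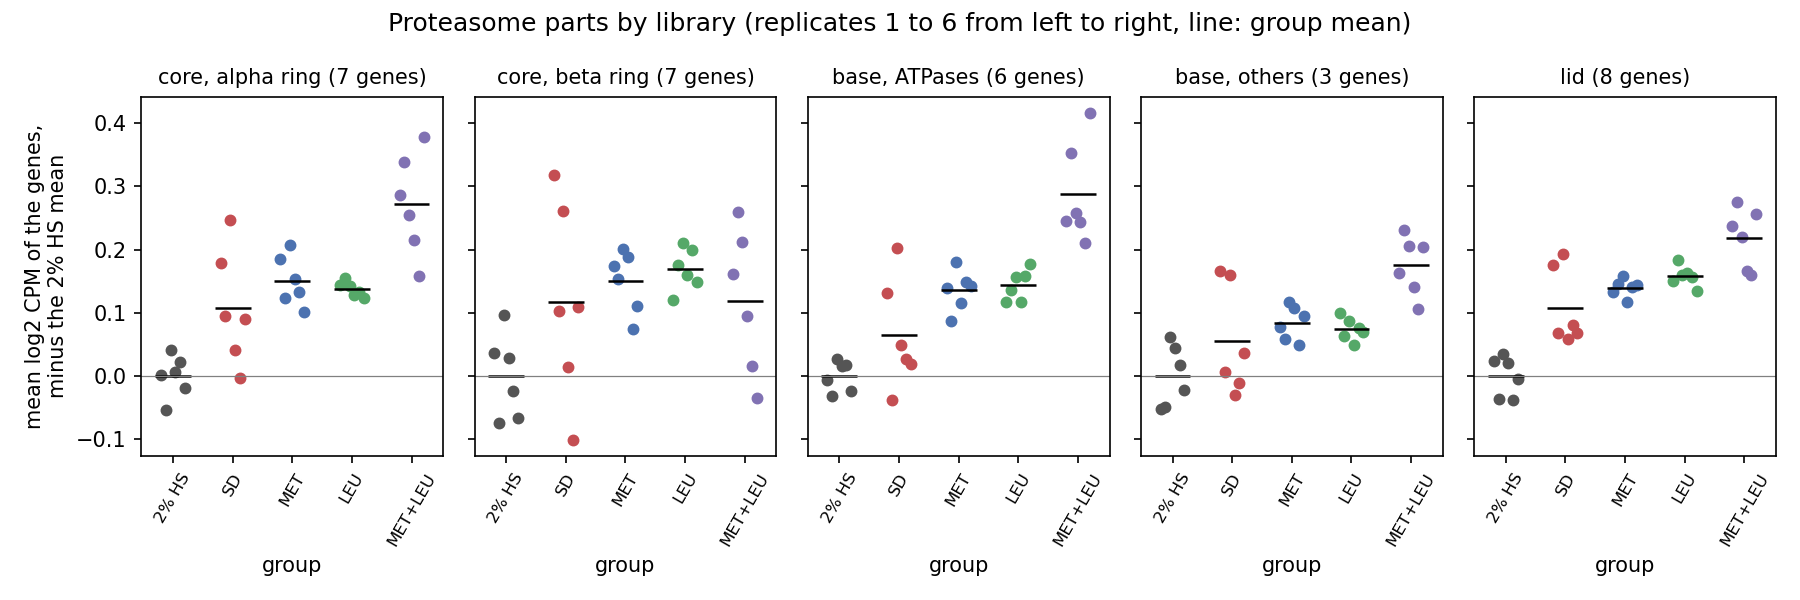
Mean log2 CPM of the genes of each part of the proteasome in each library, less the mean of 2% HS, with replicates 1 to 6 from left to right and a line at the group mean. MET+LEU is highest for the alpha ring, the ATPases, the other base subunits and the lid, and the beta ring has its widest spread in SD (-0.10 to 0.32).

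Against cells kept in serum, MET+LEU was higher for most of the particle. In MET+LEU vs. 2% HS, 28 of the 46 genes were higher and 0 lower, where 22.1% of all genes tested were higher and 20.3% lower, and the median log2 fold change was 0.20. The comparison shares the MET+LEU libraries with the last. The genes higher were 9 of 9 base, 6 of 7 alpha, 3 of 7 beta and 6 of 8 lid subunits, with Psmd5, Psmd10, Psme1 and Psme2. For 20 genes no MET+LEU library reached down to the range of 2% HS, against 11.5% of all genes. Psmd7 (0.48), Psmc1 (0.42) and Psma7 (0.37) had the largest log2 fold changes among the genes past the threshold. Each held a MET+LEU library far above the others, replicate 6 for Psmd7 and Psmc1 and replicate 2 for Psma7. Their calls held with any 1 library left out, but their sizes and order without these libraries are not given here. For Psmc3 the values were 238, 249.6 and 261 CPM in 2% HS and 293, 313 and 342 CPM in MET+LEU, an increase of 26.1%. Of the 31 constitutive subunits, 28 had their lowest group mean in 2% HS and 23 their highest in MET+LEU. The share of all genes with such an order is not given here, and the subunits share their libraries, so they are not independent. The beta subunits Psmb1, Psmb3, Psmb4 and Psmb5 had log2 fold changes of 0.02, 0.05, -0.05 and 0.06, and the widest of their intervals reached from -0.23 to 0.14 and from -0.13 to 0.25. The remaining activators and the inhibitor overlapped with serum as well. In 2% HS, Psme3 was at 114, 119 and 126 CPM, Psme4 at 318, 326 and 331 CPM and Psmf1 at 25.04, 27.99 and 28.5 CPM. Psme1 was at 16.01, 16.8 and 19.6 CPM and Psme2 at 14.6, 16.1 and 16.9 CPM in 2% HS, so that MET+LEU was wholly higher for Psme2 and overlapped for Psme1. Psmc1 was at 82.2, 89.1 and 95.9 CPM and Psmd7 at 56.7, 63.4 and 67.8 CPM in 2% HS, both below every MET+LEU library. In MET+LEU, Psmd13 was at 58.6, 65.3 and 73.3 CPM and Psmc2 at 111, 114 and 129 CPM.

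MET+LEU was also set against each agent alone. Against MET, 7 genes were higher, where 5.54% of all genes were and 3.15% were lower. These were Psma4, Psma6, Psmc3, Psmc6, Psmd1, Psmd12 and Psme1. Against LEU, 12 were higher, where 4.61% of all genes were and 1.67% were lower, namely 5 base, 4 alpha and 1 lid subunit with Psme1 and Psme2, but only Psmc6 of these was called under every alternative and the count was as low as 1 when only these groups were fitted. Groups did not overlap for 4 genes against MET (Psma6, Psmc3, Psmc6 and Psmd1), where 2.48% of all genes lay wholly higher, and for 4 against LEU (Psmc2, Psmc6, Psmd1 and Psme2), where 2.73% did. No beta subunit was called in either comparison. Psmc6 was at 172, 179 and 179 CPM in MET, 167, 174 and 181 CPM in LEU and 191, 197 and 232 CPM in MET+LEU, so that its MET+LEU libraries lay above all others. The interaction of MET and LEU, which asks whether log2 effects of the agents add up when both are given, passed the test for 0 of the 46 genes with edgeR, DESeq2 and limma-voom (0.0503% of all genes with edgeR), so that a departure from additivity was not shown for any of them. For Psmc6 it was 0.19 ± 0.058 (edgeR adjusted p = 0.249).

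The alpha and beta rings were also set against each other within each library. The mean of the 7 alpha subunits minus that of the 7 beta subunits, relative to 2% HS, was 0.15 ± 0.132 (SD, n = 6) in MET+LEU on the log2 scale, with 5 libraries between 0.042 and 0.142 and replicate 6, whose log2 CPM also fell most steeply with GC content (a slope of -0.226 per 10 points of GC), at 0.413. It was -0.01 ± 0.077 in SD, 0.00 ± 0.034 in MET and -0.03 ± 0.034 in LEU. The SD group reached from -0.14 to 0.10 and so overlapped with MET+LEU. Across the 30 libraries, deviations from the group means correlated with a median r of 0.30 over the 465 pairs of constitutive subunits (83.2% above 0) and 0.61 over the 21 pairs of beta subunits. These pairs share library and depth. The spread also moved with a property of the library. The slope of log2 CPM on exonic length over 9875 genes was 0.0189 to 0.049 per doubling of length in 2% HS and -0.043 to 0.043 in SD. It was -0.024 to 0.012 in MET, -0.026 to -0.0014 in LEU and -0.042 to 0.0186 in MET+LEU. All 2% HS libraries thus lay above those of MET, LEU and MET+LEU, so in MET+LEU vs. 2% HS the slope differed along with the group. Within groups the length slope correlated with the beta mean at r = -0.90 and with the alpha mean at r = -0.71 (n = 30, description only). Without MET+LEU replicate 6, these values were -0.90 and -0.88 (n = 29). For the slope on GC content, r was 0.83 with the beta mean and 0.28 with the alpha mean, and 0.82 and 0.70 without that library. SD replicates 1 and 3, where the beta ring was highest, had the lowest length slopes of SD, -0.043 and -0.034. With an offset for GC content and length in each library, added after seeing the data, MET+LEU vs. SD still gave 14 genes higher and 0 lower, with 4 of 6 ATPases (median 0.18), 3 of 7 alpha subunits (median 0.13) and 0 of 7 beta subunits (median -0.07). With the same offset, SD vs. 2% HS gave 12 genes and MET+LEU vs. 2% HS gave 27. The part of length and GC bias in the results was not tested further.

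**Figure D5:**
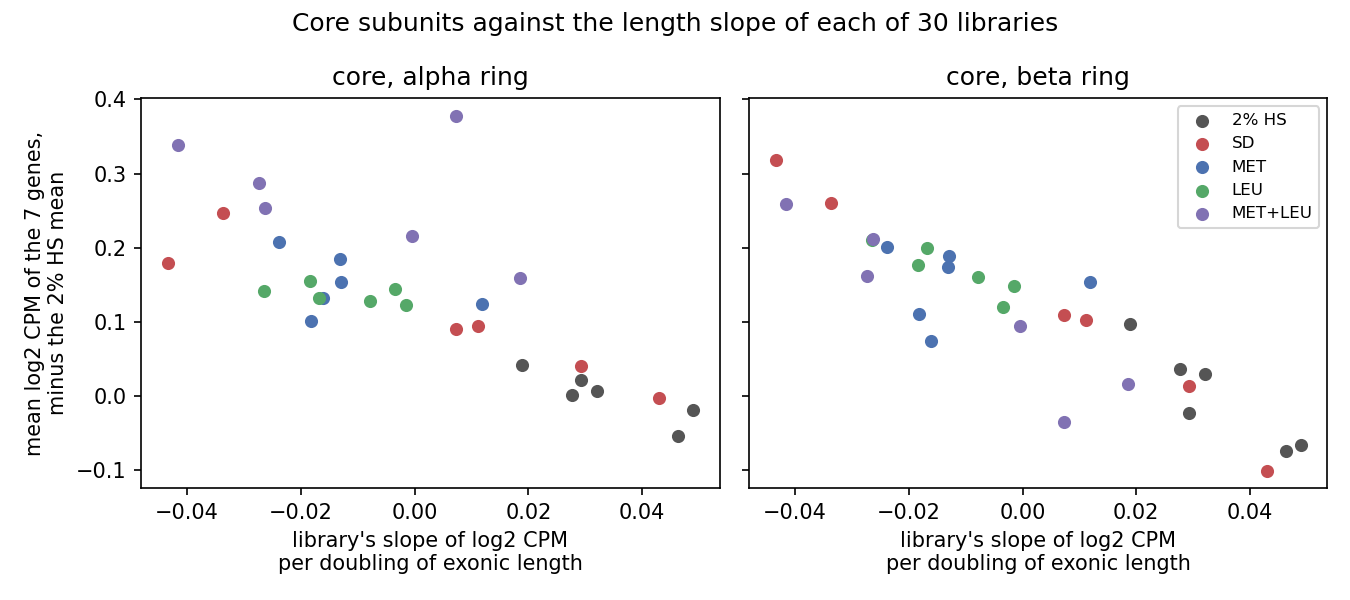
Mean log2 CPM of the 7 alpha and of the 7 beta subunits in each of 30 libraries, less the mean of 2% HS, against the slope of the library's log2 CPM on exonic length. Both means fall as the slope rises, and at similar slopes the MET+LEU libraries lie higher than SD for the alpha ring but not for the beta ring.

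Other genes of the pathway, which carry no Psm symbol, were read in the same way. Of 38 listed genes with a row, 37 were tested. In SD vs. 2% HS, 5 were higher and 4 lower, in MET+LEU vs. SD 9 higher and 1 lower, and in MET+LEU vs. 2% HS 13 higher and 6 lower. Of all genes tested, 13.9% were higher and 13.9% lower in the first, 10.6% and 7.8% in the second and 22.1% and 20.3% in the third, so the serum-deprivation counts and the lower counts lay near or below these shares. Of the remaining subunits of the regulatory particle, Sem1, a small lid subunit, rose in MET+LEU vs. SD (0.88 ± 0.179; edgeR adjusted p = 0.00108), and the ubiquitin receptor Adrm1 rose in SD (0.16 ± 0.043; edgeR adjusted p = 0.00301) and was at -0.07 in MET+LEU vs. SD, where it did not pass. Pomp, the maturation factor of the core, rose with the combination (0.21 ± 0.054; edgeR adjusted p = 0.00362). So did the proteasome-bound deubiquitinase Uchl5 (0.69) and Txnl1 (0.16), while Usp14, another deubiquitinase on the particle, was at -0.01. Of the transcription factors known to act on proteasome genes, Nfe2l1 (Nrf1) passed in neither comparison (-0.02 with serum deprivation and -0.03 with the combination), and Nfe2l2 (Nrf2) fell by 0.24 in SD on the log2 scale and rose by 0.23 in MET+LEU vs. SD. The 7 tested regulators moved in both directions. In SD vs. 2% HS, 1 was higher and 2 lower (-0.28 to 0.21), and in MET+LEU vs. SD, 1 was higher and 1 lower (-0.25 to 0.23). The shuttle receptor Rad23b rose in both (0.13 and 0.13), and Vcp, which extracts substrates, passed the test only against 2% HS (0.13).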

How the data were processed

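Total RNA of 30 C2C12 libraries (5 groups of 6, from the labels) was rRNA-depleted, made into stranded libraries and sequenced with 150 bp paired reads. The deposited values are the authors' raw counts per gene, whole numbers without normalization. The submitters' processing notes name STAR 2.7.6a, cutadapt 1.16, featureCounts 1.6.3, DESeq2 1.30.1 and GRCm38, while the annotation release and strand setting are not given in the sources used here. Symbols, lengths and GC content came from GENCODE M21, which held 55141 of 55487 identifiers.

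Counts were tested in R 4.3.3 with edgeR 4.0.16. Genes were kept by filterByExpr (minimum count 10, minimum total 15, group size 6), which left 15907, scaled by TMM and fitted with a mean per group over all 30 libraries (glmQLFit, robust). Contrasts were tested by quasi-likelihood, and p-values were adjusted across the 15907 genes (Benjamini-Hochberg, threshold 0.05). Standard errors are the size of the log2 fold change divided by the root of F. Intervals are approximate 95% intervals that reach 2 standard errors to either side. CPM are TMM-scaled, and log2 CPM used a prior count of 2. Alternatives were DESeq2 1.42.0, limma-voom 3.58.1, other scalings, filters and thresholds, a model of only the groups compared, a replicate block, and leaving out each library. Offsets for GC and for GC and length, and a fit without both SD replicates 1 and 3, were added after seeing the data. On simulated counts for MET+LEU vs. SD (15746 genes), edgeR recovered 60 of 100 genes changed 1.2-fold and 99 of 100 changed 1.5-fold. Of 165 calls, 6 were false. Recovery of changes in the proteasome genes themselves was not tested, so genes that did not pass may still have changed.

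The genes, their grouping and the lists were chosen with earlier results of these data known. Lowest, median and highest values are given for the catalytic, inducible and tissue-specific subunits, activators, inhibitor and the 5 largest changes past the threshold, both for serum deprivation and for the combination against it. Other genes past the threshold there are given by fold change, and genes of another comparison are named where 10 or fewer passed. Psma6, Psmc6 and Psmd12 were chosen after their values were seen. No pair of libraries in a group agreed within sampling noise (chi-square per degree of freedom at least 2.29 over 75 pairs).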

Additional observations from a re-analysis of the deposited data

Results flagged for a closer look

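In 6 of 85 groups of 6 libraries examined (5 for single genes and 1 for the alpha minus beta mean), a library lay far from the nearest other for the range of its group by Dixon's ratio at the 95% level. Independent groups would give this in about 1 in 20. These groups share libraries, and some of the genes were picked for their change, so the number cannot be set against that share. All but the Psmb7 value were in MET+LEU replicates 2 and 6. In LEU, Psmb7 was at 128 CPM in replicate 1 and at 137 to 140 CPM in the other 5. In MET+LEU replicate 2, Psma7 was at 98.5 CPM (others 85.3 to 88.9) and Psmc2 at 129 CPM (others 111 to 117). In MET+LEU replicate 6, Psmd7 was at 118 CPM (others 76.0 to 86.8) and Psmc1 at 153 CPM (others 108 to 116), and the alpha minus beta mean was 0.413 on the log2 scale (others 0.042 to 0.142). Replicate 6 was also the library with 5.85% nuclear and 7.64% mitochondrial rRNA. The part of its rRNA content in these values was not tested.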

How the results depend on the processing

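The counts of called genes stayed within 1.5 times of their value, with 0 lower, under every alternative in MET+LEU vs. SD (14 to 22 with a library left out) and MET+LEU vs. 2% HS (27 to 29), and at 0 for the interaction. Without both SD replicates 1 and 3, the 13 genes of SD vs. 2% HS became 2, the 0 of MET vs. SD became 3 and the 1 of LEU vs. SD became 3. SD vs. 2% HS also gave 6 at an adjusted p under 0.01 and 7 to 14 with a library left out. MET vs. SD gave 0 and LEU vs. SD 0 to 1 with a library left out, and LEU vs. SD gave 0 at 0.01. The 12 genes of MET+LEU vs. LEU became 1 at 0.01, 5 with upper-quartile scaling, 6 among genes with more than 5 counts in total, 1 with only the groups compared and 2 to 11 with a library left out (6, 6, 3, 2 and 3 without LEU replicates 1 to 5, and 4, 5 and 3 without MET+LEU replicates 1, 2 and 6). The 7 genes of MET+LEU vs. MET became 11 with the GC offset, 11 with the GC and length offset and 6 to 9 with a library left out. The cause was not tested. Libraries of the same replicate number correlated at r = -0.09 to 0.14 over 60 pairs (mean 0.016, against -0.003 for other numbers). Of the 30 libraries, 9 were closest to their own number. A weak pairing by number cannot be told from none with these values. With the replicate block, 13 genes passed for serum deprivation, 0 for MET and 1 for LEU, 19 for the combination against SD, 28 against serum, 14 against LEU and 9 against MET. For single genes past the threshold, 314 results under an alternative no longer passed, 3046 still did, and none changed direction. Depth limits Psmb8, Psmb9, Psma8 and Psmb11.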
